A study of Homo sapiens with 4 samples.

Results

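The genes described are 33 enzymes of glycolysis and the pentose phosphate pathway, chosen by name but with earlier results of these data known, and found by Ensembl identifier among the 58037 genes of the count table. All 33 passed the filter on low counts that left 15718 genes to test. RNA was sequenced from OCI-AML3, an established human acute myeloid leukemia (AML) cell line with heterozygous NPM1 and DNMT3A mutations and a mutated NRAS gene. Cells had been transfected with Cas9 and either a control guide (sgRNA Ctrl, sgNeg in the labels) or sgNPM1A, a guide to the mutant NPM1 allele (mtNPM1), and were harvested 72 hours (3 days) later. There were 2 libraries per group, named by their replicate numbers 1 and 2, and both groups shared the same parental mutations and the transfection. The edited cells were a transfected population and not a clone, and the share of edited cells is not measured by these counts.

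Glycolysis splits glucose into pyruvate through hexose steps that spend ATP and triose steps that return it. Lactate dehydrogenase turns pyruvate into lactate, whereas the pyruvate dehydrogenase complex passes it on to the citric acid cycle, and pyruvate dehydrogenase kinases (PDK) switch that complex off. The pentose phosphate pathway branches off at glucose 6-phosphate and provides NADPH and ribose for nucleotides. Leukemic blasts, like other dividing cells, rely on these routes for energy and building blocks.

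Total counts were between 25069484 and 28276391 per library, and mitochondrial genes took between 8.37% and 8.63% of them. NPM1 itself was at 1319 and 1385 CPM (counts scaled to the library's size after TMM normalization) with sgRNA Ctrl and at 1189 and 1132 CPM with sgNPM1A. Its log2 fold change was -0.22 ± 0.07 (SE; edgeR quasi-likelihood test, adjusted p = 0.0360). This fall was too small to pass the call rule given below. The adjusted p was 0.0278 with DESeq2 and 0.156 in edgeR with the replicate number as a block. The counts do not tell the mutant from the wild-type allele. All 7 myeloid markers were detected, and their summed share of all counts was between 0.133% and 0.136% with sgRNA Ctrl and between 0.390% and 0.461% with sgNPM1A. LYZ (lysozyme) was at 271 and 215 CPM with sgRNA Ctrl, where SPI1 was the most abundant of the 7, and at 2643 and 3367 CPM with sgNPM1A, where LYZ was. The other myeloid markers that passed the call rule given below were MPO, ANPEP and SPI1, all higher, while CD33, CEBPA and PTPRC did not. The 3 T cell markers were at 0 counts in every library, and the 3 B cell markers summed to between 35 and 52 counts. The 4 erythroid markers summed to between 3 and 5 counts. Of the 3 epithelial markers EPCAM was at 0 in every library and CDH1 at 0 or 1 count. KRT18 fell by 2.01 on the log2 scale, from 52 and 64 to 14 and 17 counts. Of the 3 fibroblast markers COL1A2 fell by 1.33, from 698 and 740 to 361 and 259 counts. PDGFRB rose by 1.49 but from 7 counts in both sgRNA Ctrl libraries to 16 and 27, and COL1A1 had between 2 and 6 counts. In such bulk samples of a single cell line, a change in the number of cells that express a marker and a change in its RNA per cell cannot be told apart. The part of the higher myeloid markers in the results below was not tested.

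More of the metabolic genes were called higher than lower with sgNPM1A. Genes were called in edgeR's quasi-likelihood test if the adjusted p was under 0.05 and the log2 fold change, in either direction, at least 0.32, the study's fold threshold. By this rule 11 of the 33 genes rose (33.3%, against 10.5% of all tested genes called higher) and 1 fell (against 10.3% called lower). The 11 were the hexokinase gene HK3, the fructose 2,6-bisphosphate enzyme gene PFKFB3, the aldolase genes ALDOA and ALDOC, PGAM1, ENO2 and PKM of the triose steps, LDHA, PDHA1, and the pentose phosphate genes PGD and TKT, and the gene that fell was PDK2. A further 5 genes had an adjusted p under 0.05 and a smaller fold change (HK1, GPI, ENO1, PGLS and TALDO1), and 16 did not pass the adjusted p. The groups did not overlap for 27 genes (81.8%, against 63.1% of all tested genes), 25 of them higher with sgNPM1A. The median log2 fold change of the 33 genes was 0.25, compared with 0.00 over all tested genes, and 29 of the 33 fold changes were above 0, compared with 7864 of all 15718. Summed, the 33 genes took 1.66% and 1.57% of the counts in the sgRNA Ctrl libraries and 1.86% and 1.92% in the sgNPM1A libraries.

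**Figure D1:**
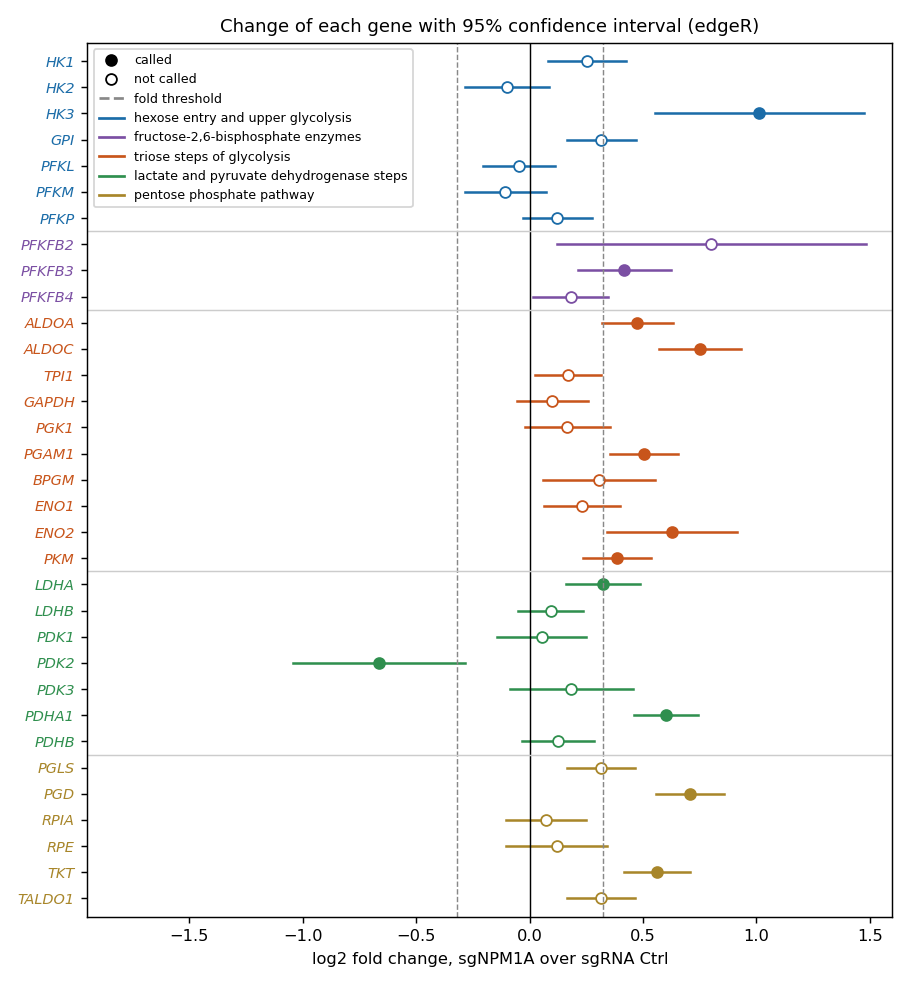
Log2 fold change of each gene, sgNPM1A over sgRNA Ctrl, with its 95% confidence interval from edgeR (2 libraries per group), colored by step; filled points are genes that passed the call rule and dashed lines mark the fold threshold, 0.322. The 11 filled points to the right lie between 0.323 and 1.01 and are spread over all 5 steps, and PDK2, at -0.66, is the filled point to the left.

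Because many glycolytic genes are classical targets of hypoxia-inducible factors and of the MYC family, the letters around their transcription starts were read from RefSeq (GRCh38.p14) in windows of 250 bases before to 50 bases after the start. The searched motifs, on both strands, were the cores ACGTG and GCGTG of a hypoxia-response element, and CACGTG, the E-box, which holds ACGTG on both of its strands and counts as 2 such cores. A window was found for 32 of the 33 genes (all but PFKFB2). ACGTG was in a window of 18 of the 32 genes (56.3%), compared with 32.1% of 10735 tested genes with a window, and CACGTG in 8 of 32 (25%), compared with 12.7%. GCGTG was in 19 of 32 (59.4%), compared with 58.0%. The share with ACGTG was 54.5% for the 11 genes called higher and 57.1% for the other 21 with a window, and the share with CACGTG 36.4% and 19.0% (4 genes each). Counted per window, ACGTG was in 8 of 15 windows of the genes called higher (53.3%) and in 14 of 41 of the others (34.1%), and CACGTG in 26.7% and 9.76%, compared with 21.4% and 7.23% of all 34943 windows. Windows of the same gene can overlap and are not independent, and the shares per window weight a gene by its number of starts. HK1 and PFKM, both not called, have 7 windows each, and ACGTG is in none of those of HK1. The difference per window is thus not one between separate genes. In the shares per gene, several windows raise a gene's chance of a match. A match is a description of the sequence and not a bound site. The 250 bases before the start are printed for 3 genes that rose (LDHA, ALDOC and PGD) and for PGK1, which was not called. These windows hold several cores but are only examples. A window of HK2 and that of PDHB, both genes that were not called, hold 6 cores each and are not printed. Each reads 5′ to 3′ on the gene's strand, with the cores in capitals, read as CACGT or CACGC where the motif lies on the opposite strand. The LDHA sequence is chr11:18394313-18394562 on the plus strand, ALDOC is chr17:28576896-28577145 on the minus strand, PGD is chr1:10398814-10399063 on the plus strand and PGK1 is chrX:78103998-78104247 on the plus strand.
LDHA: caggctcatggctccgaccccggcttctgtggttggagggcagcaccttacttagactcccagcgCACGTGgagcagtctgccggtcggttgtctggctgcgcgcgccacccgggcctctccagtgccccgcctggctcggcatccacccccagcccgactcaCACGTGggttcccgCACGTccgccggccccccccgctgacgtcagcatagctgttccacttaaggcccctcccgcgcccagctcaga
ALDOC: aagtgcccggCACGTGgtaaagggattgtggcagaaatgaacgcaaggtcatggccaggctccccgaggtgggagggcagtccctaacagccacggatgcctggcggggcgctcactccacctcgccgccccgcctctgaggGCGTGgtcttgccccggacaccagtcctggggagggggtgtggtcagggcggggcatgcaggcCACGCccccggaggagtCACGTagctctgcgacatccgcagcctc
PGD: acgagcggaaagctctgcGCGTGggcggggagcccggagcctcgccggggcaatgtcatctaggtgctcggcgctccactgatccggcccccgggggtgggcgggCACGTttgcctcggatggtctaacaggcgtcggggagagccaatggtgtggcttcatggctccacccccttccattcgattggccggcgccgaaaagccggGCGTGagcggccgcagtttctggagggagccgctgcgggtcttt
PGK1: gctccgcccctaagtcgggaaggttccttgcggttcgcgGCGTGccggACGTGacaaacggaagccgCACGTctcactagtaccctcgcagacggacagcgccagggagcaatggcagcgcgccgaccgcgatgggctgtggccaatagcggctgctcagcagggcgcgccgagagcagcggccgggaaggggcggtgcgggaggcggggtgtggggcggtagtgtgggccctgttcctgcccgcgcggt
In these stretches LDHA has 5 ACGTG cores, 4 of them in its 2 E-boxes, and ALDOC has 3 ACGTG and 2 GCGTG cores. PGD has 1 ACGTG and 2 GCGTG cores, and PGK1 has 2 ACGTG cores and 1 GCGTG core. HK3, PGAM1 and TKT rose and have none of the 3 motifs in any window.

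Levels were compared between genes as TPM, that is, counts per base of exon scaled to the same total in each library. The exon length is that of all annotated exons of a gene together, which can exceed the length of the transcripts present. The order of genes and the isozyme shares below therefore depend on the annotation, whereas fold changes do not. GAPDH was the most abundant of the 33 genes in every library, at 3875 and 3542 TPM with sgRNA Ctrl and 3672 and 3870 TPM with sgNPM1A. ALDOA followed in each group, with a mean of 1486 TPM with sgRNA Ctrl and of 1960 TPM with sgNPM1A. ENO1 (1330 TPM), TPI1 (1315 TPM) and LDHB (1253 TPM) came next with sgRNA Ctrl, and the spread of the 2 ENO1 libraries (1419 and 1240 TPM) took in all 4 values of TPI1 and LDHB in that group, so the place of ENO1 was not clear, whereas both TPI1 values lay above both LDHB values. PKM, LDHA, PGK1 and TALDO1 were at 717, 563, 456 and 406 TPM with sgRNA Ctrl, where the values of PGK1 (496 and 416 TPM) and TALDO1 (395 and 416 TPM) met. At the low end, PDK3, HK3 and PFKFB2 were at 1.82, 1.48 and 0.235 TPM with sgRNA Ctrl. Of the 11 genes that rose, ALDOA, PKM, LDHA, TKT and PGAM1 were among the 11 most abundant of the 33, and HK3 and ENO2 among the 5 least abundant with sgRNA Ctrl.

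**Figure D2:**
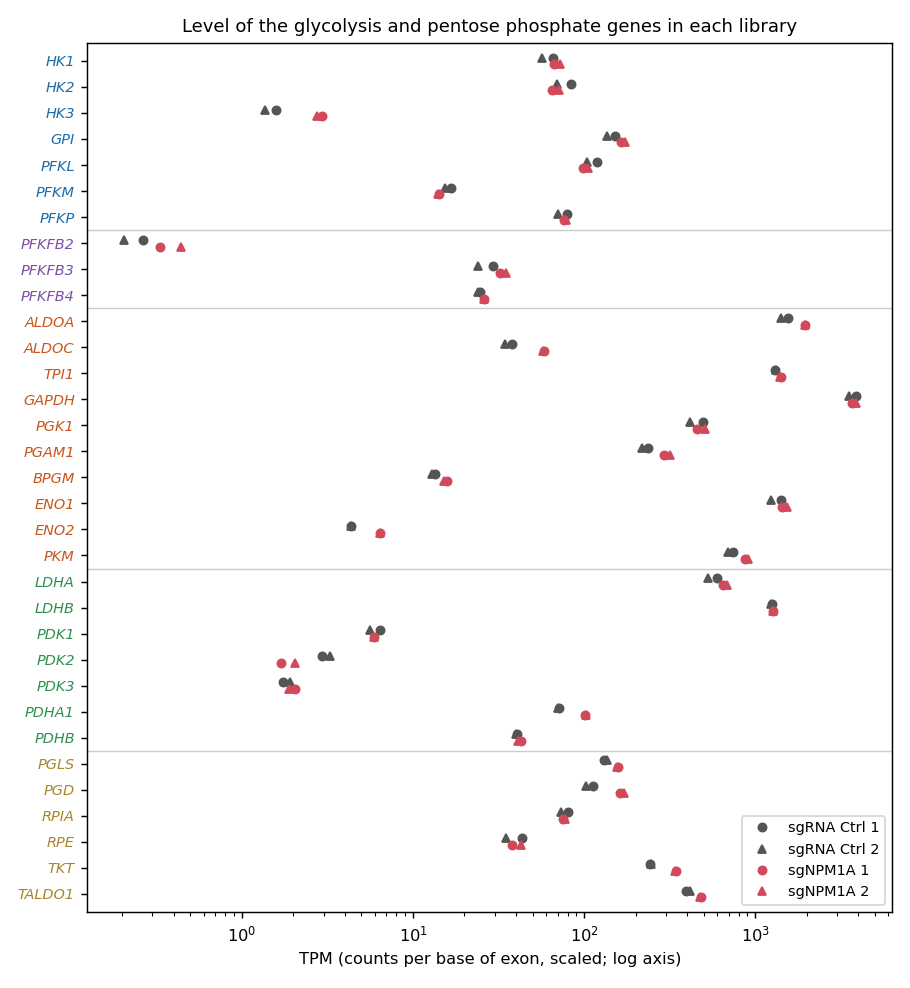
Level of each gene in each of the 4 libraries, as TPM on a log axis, with the genes in the order of their steps (colors of the names). Levels run from 0.235 TPM (PFKFB2, sgRNA Ctrl mean) to 3709 TPM (GAPDH, sgRNA Ctrl mean), and the gap between the groups is small beside the gaps between genes.

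At the entry of glycolysis only the low hexokinase HK3 was called among 7 genes (14.3%, near the 10.5% of all tested genes called higher). Hexokinases phosphorylate glucose and so hold it in the cell, and HK3 is the isozyme known from myeloid cells. HK3 was at 1.61 and 1.43 CPM with sgRNA Ctrl (41 and 37 counts) and at 3.19 and 2.95 CPM with sgNPM1A (89 and 82 counts). This was a rise of 2.02-fold (log2 fold change 1.01 ± 0.21, adjusted p = 0.00446). HK1, the broadly expressed isozyme, was at 139 and 123 CPM against 150 and 163 CPM, and HK2, the inducible one, at 152 and 130 against 126 and 138 CPM. For HK1 the log2 fold change was 0.25 ± 0.08 (adjusted p = 0.0345), and for HK2 it was -0.10 ± 0.08 (adjusted p = 0.424). Both HK1 libraries with sgNPM1A lay above both with sgRNA Ctrl, whereas the HK2 groups overlapped. Without the first sgRNA Ctrl library HK1 was called, at 0.35 on the log2 scale.

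GPI converts glucose 6-phosphate to fructose 6-phosphate and was the most abundant gene of these steps. It was at 494 and 460 CPM with sgRNA Ctrl and at 579 and 607 CPM with sgNPM1A (477 ± 24.2 and 593 ± 19.9 CPM; SD, n = 2). The groups did not overlap, and the log2 fold change of 0.315 ± 0.07 had an adjusted p of 0.00642 but stayed under the fold threshold of 0.322. It was past that threshold without the first library of either group (0.37 and 0.35 on the log2 scale). The 3 phosphofructokinases, which commit the sugar to glycolysis, were not called. Their log2 fold changes were -0.05 for PFKL, -0.11 for PFKM and 0.12 for PFKP, with 95% confidence intervals between -0.29 and 0.27.

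The PFKFB enzymes make and remove fructose 2,6-bisphosphate, the main allosteric activator of phosphofructokinase, and PFKFB3 is the isozyme with the strongest kinase activity. PFKFB3 was at 55.0 and 46.0 CPM with sgRNA Ctrl and rose to 64.9 and 70.0 CPM with sgNPM1A (1.34-fold, log2 fold change 0.42 ± 0.09, adjusted p = 0.00694). Without the second sgRNA Ctrl library its fold change was 0.30 on the log2 scale and it was not called. PFKFB2, which was not called, had the second-largest estimate of the 33 genes and the least certain, with 21 and 17 counts against 31 and 41 counts, a log2 fold change of 0.80 ± 0.31 and an adjusted p of 0.0813. With the same call rule PFKFB2 was called in 1 alternative, with the replicate numbers of a group exchanged as a block. That setting was chosen after seeing the data. The adjusted p was 0.0445 there, 0.0931 with the replicate block as numbered and 0.330 with DESeq2. PFKFB2 also passed the rule that used the unadjusted p (0.0253 in edgeR) with the fold threshold. Its exons share 315 bases with YOD1 on the opposite strand, a gene with 332 to 487 counts, and whether the counting used strand is not given in the sources used here. PFKFB4 was not called (log2 fold change 0.18, adjusted p = 0.100).

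The triose steps, the longest of the 5 lists, held the largest number of called genes, 5 of 10 (50%, against 10.5% of all tested genes called higher). All 10 fold changes were above 0, compared with 7864 of all 15718. Aldolase cleaves fructose 1,6-bisphosphate into trioses. ALDOA, the main aldolase of most tissues, was at 1839 and 1699 CPM with sgRNA Ctrl and at 2461 and 2460 CPM with sgNPM1A (1769 ± 99.2 and 2460 ± 0.709 CPM; SD, n = 2), a rise of 1.39-fold (log2 fold change 0.48 ± 0.07, adjusted p = 0.000513). ALDOC, the aldolase best known from brain, was at 30.5 and 28.5 CPM and rose to 50.3 and 49.1 CPM (1.68-fold, log2 fold change 0.75 ± 0.08, adjusted p = 5.07e-05). ALDOC has no 50-base stretch in common with another gene, whereas 37.4% of such stretches of ALDOA occur in other genes. For both, the gap between the groups was several times the gap between libraries of a group.

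PGAM1 moves the phosphate within 3-phosphoglycerate. It was at 184 and 175 CPM with sgRNA Ctrl and rose to 246 and 263 CPM with sgNPM1A (1.42-fold, log2 fold change 0.50 ± 0.07, adjusted p = 0.000245). Of its 50-base stretches 40.0% recur in other genes, and the 14 PGAM1 copies in the table held between 0.375% and 0.575% as many counts as PGAM1 in each library, and how reads that match several genes were counted is not given in the sources used here. Enolase makes phosphoenolpyruvate. ENO2, the neuronal isozyme, was at 5.74 and 5.83 CPM and rose to 8.97 and 8.93 CPM (1.55-fold, log2 fold change 0.63 ± 0.13, adjusted p = 0.00454). ENO1, the abundant isozyme, was at 2273 and 2039 CPM against 2461 and 2605 CPM, with a log2 fold change of 0.23 ± 0.08 and an adjusted p of 0.0440, under the fold threshold. PKM, the pyruvate kinase of dividing cells, was at 1941 and 1884 CPM and rose to 2441 and 2560 CPM (1.31-fold, log2 fold change 0.39 ± 0.07, adjusted p = 0.00169), a call that was lost without the second sgNPM1A library (0.35 on the log2 scale). The counts are per gene and do not tell the PKM1 from the PKM2 splice form.

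GAPDH oxidizes glyceraldehyde 3-phosphate and is often used as a loading control. It was at 2851 and 2675 CPM with sgRNA Ctrl and at 2890 and 3035 CPM with sgNPM1A (log2 fold change 0.10 ± 0.07, 95% confidence interval -0.06 to 0.26, adjusted p = 0.337). The log2 ratio of ALDOA to GAPDH, which does not depend on the normalization of the libraries, was -0.63 and -0.65 with sgRNA Ctrl and -0.23 and -0.30 with sgNPM1A. The remaining triose genes, TPI1, PGK1 and BPGM, had log2 fold changes of 0.17, 0.17 and 0.31 and adjusted p values of 0.0838, 0.185 and 0.0665, and the groups of PGK1 overlapped.

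At the branch point of pyruvate, LDHA and PDHA1 rose and PDK2 fell. These were 2 of 7 genes called higher (28.6%, against 10.5% of all tested genes) and 1 called lower (against 10.3%). LDHA, the lactate dehydrogenase subunit linked with lactate production, was at 1110 and 1001 CPM with sgRNA Ctrl and at 1286 and 1354 CPM with sgNPM1A (log2 fold change 0.323 ± 0.07, adjusted p = 0.00826). This was the call nearest to the fold threshold. It was lost in 5 of the 12 other settings, among them those without the second sgRNA Ctrl library (0.25 on the log2 scale) and without the second sgNPM1A library (0.29). LDHB, the most abundant gene of these steps per exon length, was at 1154 and 1171 against 1245 and 1236 CPM (log2 fold change 0.09 ± 0.07, adjusted p = 0.333). LDHB did not overlap between the groups, yet the separation was small beside its level.

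PDHA1 encodes the catalytic alpha subunit of pyruvate dehydrogenase and PDHB the beta subunit that pairs with it. PDHA1 was at 109 and 110 CPM with sgRNA Ctrl and rose to 165 and 166 CPM with sgNPM1A (1.52-fold, log2 fold change 0.60 ± 0.06, adjusted p = 4.52e-05). PDHB was at 58.9 and 59.5 against 66.0 and 63.3 CPM (log2 fold change 0.13, adjusted p = 0.235), so that the log2 ratio of PDHA1 to PDHB was 0.88 in both sgRNA Ctrl libraries and 1.32 and 1.39 with sgNPM1A. The exons of PDHA1 share 956 bases with MAP3K15 on the opposite strand, which had between 14 and 40 counts, compared with 2761 or more for PDHA1.

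PDK2 was the only one of the 33 genes called lower. It was at 4.96 and 5.64 CPM with sgRNA Ctrl (126 and 146 counts) and fell to 3.05 and 3.64 CPM with sgNPM1A (85 and 101 counts). The log2 fold change was -0.66 ± 0.17, at an adjusted p of 0.0152. The call was lost with DESeq2 (adjusted p = 0.0582, within a range of 0.000411 to 0.114 over all alternatives) and without the second sgRNA Ctrl library (-0.57) or the first sgNPM1A library (-0.54). In the annotation 38.6% of the PDK2 exon bases lie opposite SAMD14, which had 14 and 15 counts with sgRNA Ctrl and 2 and 2 with sgNPM1A and was called lower (log2 fold change -2.90). How reads from the shared bases were counted is not given in the sources used here, so their part in the fall of PDK2 was not tested. PDK1 and PDK3, the other kinases of the list, had log2 fold changes of 0.05 (adjusted p = 0.701) and 0.18 (adjusted p = 0.310).

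In the pentose phosphate pathway 2 of 6 genes rose (33.3%, against 10.5% of all tested genes called higher), and all 6 fold changes were above 0. PGD, which makes ribulose 5-phosphate and NADPH in the last oxidative step, was at 116 and 108 CPM with sgRNA Ctrl and rose to 178 and 186 CPM with sgNPM1A (1.63-fold, log2 fold change 0.71 ± 0.07, adjusted p = 2.30e-05, the smallest of the 33 genes). TKT, the transketolase that returns pentoses to glycolysis, was at 709 and 737 CPM and rose to 1071 and 1064 CPM (1.48-fold, log2 fold change 0.56 ± 0.07, adjusted p = 9.28e-05). In both genes the 2 libraries of a group lay close together and far from the other group. TALDO1, the transaldolase and the most abundant gene of the pathway per exon length, was at 353 and 382 against 460 and 453 CPM (log2 fold change 0.31 ± 0.07, adjusted p = 0.00582). PGLS, the lactonase between both oxidative steps, was at 114 and 122 against 148 and 145 CPM (log2 fold change 0.31 ± 0.07, adjusted p = 0.00605). Neither reached the fold threshold, although their groups did not overlap, and both were called without the second sgRNA Ctrl library (0.37 on the log2 scale each). In the annotation 8.94% of the PGLS exon bases lie opposite PGLS-DT, which rose by 0.58 on the log2 scale from 65 and 84 counts to 121 and 120 counts. RPIA and RPE, which interconvert the pentose phosphates, had log2 fold changes of 0.07 (adjusted p = 0.555) and 0.12 (adjusted p = 0.431), and the groups of both overlapped. Summed, the 6 genes took 0.140% and 0.145% of the counts with sgRNA Ctrl and 0.192% and 0.191% with sgNPM1A.

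The balance of isozymes was described, without a test, as the share of each in the summed TPM of those isozymes of its family that are among the 33 genes. Expressed isozymes outside the 33 are not in these sums, namely PDK4 (3.55 and 2.78 TPM with sgRNA Ctrl, 2.45 and 2.54 TPM with sgNPM1A), ENO3 (16.9 and 19.8 against 16.9 and 13.9 TPM) and LDHC (9.45 and 11.1 against 12.5 and 10.5 TPM), none of which was called. PDK4 was thus about as abundant as PDK2, and ENO3 was above ENO2. The HK1 share of the hexokinases was 43.6% and 44.3% with sgRNA Ctrl and 49.5% in both sgNPM1A libraries, and that of HK2 was 55.3% and 54.6% against 48.3% and 48.6%. By this measure HK2 was above HK1 in the control libraries, and the 2 were close to equal after mtNPM1 KO. The LDHA share of LDHA and LDHB was 32.2% and 29.7% with sgRNA Ctrl and 33.8% and 35.2% with sgNPM1A. This share rests on exon lengths of 6026 bases for LDHA and 2983 for LDHB. In CPM, without that length, the log2 ratio of LDHA to LDHB was -0.06 and -0.23 with sgRNA Ctrl and 0.05 and 0.13 with sgNPM1A. The PDK2 share of PDK1, PDK2 and PDK3 was 26.6% and 30.2% against 17.6% and 20.6%. ALDOC and ENO2, despite their rise, were small parts of the sums with ALDOA and ENO1, with means of 2.39% and 0.327% with sgRNA Ctrl and of 2.87% and 0.429% with sgNPM1A.

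**Figure D3:**
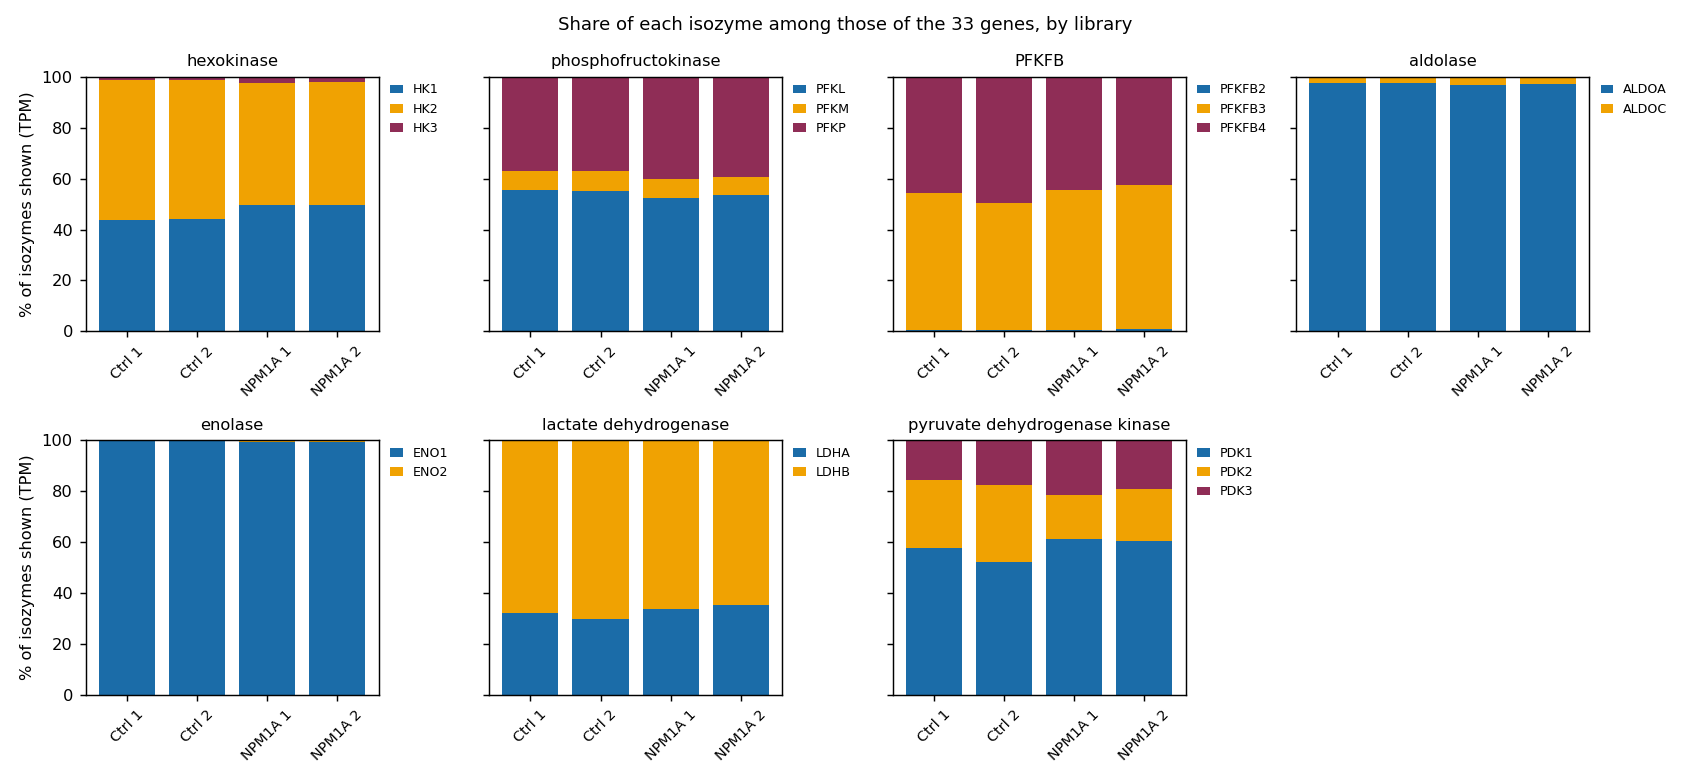
Share of each isozyme in the summed TPM of the isozymes shown, in each library (Ctrl, sgRNA Ctrl; NPM1A, sgNPM1A), as stacked bars that add up to 100% because PDK4, ENO3 and LDHC, which are not among the 33 genes, are left out. HK1 gains on HK2 (43.6% and 44.3% against 49.5% in both sgNPM1A libraries), and the PDK2 share of the 3 kinases shown is smaller with sgNPM1A, whereas ALDOA and ENO1 make up nearly the whole of their bars in every library.

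Genes next to these routes were examined in 7 lists, whose counts stand against the 10.5% of all tested genes called higher and the 10.3% called lower. Of the other glycolysis, gluconeogenesis and pyruvate genes 18 of 29 were tested, of which 6 rose and 1 fell (median log2 fold change 0.13). FBP1, which runs the phosphofructokinase step backwards in gluconeogenesis, rose from 24.4 and 26.3 CPM to 88.1 and 87.7 CPM (3.47-fold, adjusted p = 8.75e-08), a larger change than that of any of the 33 genes. MPC2, a subunit of the carrier that takes pyruvate into mitochondria, rose from 17.3 and 19.7 to 31.5 and 31.4 CPM (1.70-fold, adjusted p = 0.000140), and the glucose 6-phosphatase gene G6PC3 fell from 90.7 and 85.6 to 70.5 and 66.2 CPM (adjusted p = 0.00375, and not called without the second sgNPM1A library, at -0.32). Of 9 other pentose phosphate genes 6 were tested, and 2 rose, with a median of 0.29. They were the ribokinase gene RBKS (log2 fold change 0.81, adjusted p = 0.00849) and PRPS2, which makes phosphoribosyl pyrophosphate for nucleotides (log2 fold change 0.35, adjusted p = 0.0120). Without the first sgRNA Ctrl library neither was called (0.64 and 0.28 on the log2 scale), nor was PRPS2 without the second sgNPM1A library (0.28).

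Among 11 tested transporters of glucose and lactate 3 rose and 1 fell (median 0.14), the latter a share near that of all tested genes. The glucose transporters moved in both directions: SLC2A1 (GLUT1) was at 92.8 and 73.9 CPM with sgRNA Ctrl and at 62.1 and 63.5 CPM with sgNPM1A (log2 fold change -0.41 ± 0.10, adjusted p = 0.0109), whereas SLC2A3 (GLUT3) rose from 37.5 CPM in both libraries to 58.7 and 59.2 CPM (1.57-fold, adjusted p = 8.18e-05). SLC2A6 rose from 12.8 and 11.5 to 22.2 and 28.3 CPM (2.08-fold, adjusted p = 0.000125). The fall of SLC2A1 was not called without the first sgRNA Ctrl library (-0.24 on the log2 scale). Of the 14 glycogen and hexosamine genes 3 rose and 1 fell (median 0.24). PGM1, which links glucose 6-phosphate and glucose 1-phosphate, changed by 0.86 on the log2 scale (adjusted p = 1.69e-05), the glycogen branching enzyme GBE1 by 0.75 (adjusted p = 0.000338) and the glycogen phosphorylase PYGB by -0.43 (adjusted p = 0.00119).

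Of the 17 citric acid cycle genes 9 rose, with a median log2 fold change of 0.35, including the malate dehydrogenase gene MDH1 (log2 fold change 0.63, adjusted p = 0.000144) and SDHD, a membrane anchor of succinate dehydrogenase (0.63, adjusted p = 0.000146). Of the 19 tested genes of 20 that respond to hypoxia but lie outside glycolysis 10 rose (median 0.41). MIR210HG, the host transcript of miR-210, rose from 4.76 and 4.02 to 14.7 and 11.7 CPM (3.01-fold, adjusted p = 2.70e-05) and FAM162A from 27.3 and 31.5 to 59.5 and 57.4 CPM (1.99-fold, adjusted p = 1.26e-05). Of 12 tested regulators of glycolytic transcription 2 fell (median 0.02), where the share over all tested genes called lower, 10.3%, amounts to about 1 gene. They were EPAS1, which encodes HIF-2 alpha and fell from 84.0 and 69.8 to 22.8 and 20.9 CPM (log2 fold change -1.82 ± 0.10, adjusted p = 4.19e-07), and TXNIP, an inhibitor of glucose uptake (-0.37, adjusted p = 0.00570). TXNIP was not called without the first library of either group (-0.27 and -0.33). HIF1A was at 38.0 and 30.8 against 26.2 and 32.6 CPM (log2 fold change -0.23, adjusted p = 0.207) and was not called. MYC was at 410 and 403 against 352 and 332 CPM (log2 fold change -0.25, adjusted p = 0.0159), under the fold threshold. Of the 12 regulators 7 had a log2 fold change above 0. The part of these regulators in the changes of the 33 genes was not tested.

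**Figure D4:**
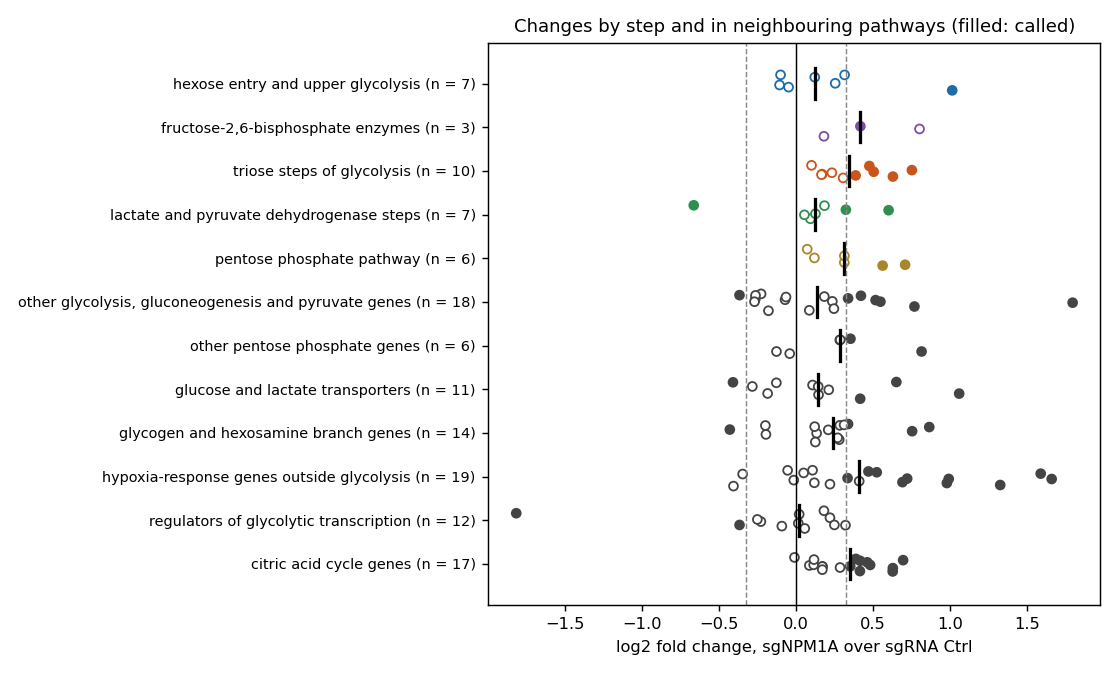
Log2 fold change (sgNPM1A over sgRNA Ctrl) of every tested gene in the 5 steps of the 33 genes (colored) and in 7 neighbouring lists (grey), with filled points for called genes, a black bar at each list's median and dashed lines at the fold threshold; the vertical scatter within a list has no meaning. Medians run from 0.02 (regulators) to 0.42 (the 3 PFKFB genes), and the hypoxia-response and citric acid cycle lists lie mostly to the right.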

How the data were processed

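The authors mapped reads to hg38 with STAR and Samtools and deposited raw counts per Ensembl gene, 1 column per library; the counting program, its use of strand and the annotation release are not given in the sources used here. The paper calls the 2 libraries per group biological replicates, and p-values measure the spread between these libraries. The labels give alpha-MEM as the medium and the paper RPMI. No ERCC spike-in gene is in the table.

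Counts were tested in edgeR 4.0.16 (R 4.3.3) with filterByExpr (minimum count of 10), TMM normalization and its two-sided quasi-likelihood F test, and p-values were adjusted over 15718 genes by the Benjamini-Hochberg method. The call rule was an adjusted p under 0.05 with a log2 fold change of 0.322 or more in either direction. Genes were matched by Ensembl identifier, and each of the 33 matched 1 row. CPM are TMM-normalized, and TPM use the exon length in GENCODE v44lift37. In these libraries 3 counts correspond to between 0.108 and 0.118 CPM, which covers counting error only. With 2 libraries against 2, an exact permutation test of a single value cannot give a two-sided p below 0.333. Coordinates and promoter windows are those of RefSeq on GRCh38.p14.

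The genes and lists were chosen with earlier results of these data known. Every called gene of the 33 and the most abundant of each step are given in every library, and from each neighbouring list at most 2 called genes per direction, those with the smallest adjusted p. PDK4, ENO3, LDHC, MYC, HIF1A and the genes that overlap the 33 were named after their values were seen. The script was tested on simulated data with known changes. The alternatives were RLE size factors, library size only, no filter, a minimum of 10 counts in each library, DESeq2 1.42.0, limma-trend (limma 3.58.1) on quantile-normalized log2 CPM, other call rules, the replicate number as a block, and each library left out in turn, where the lone library of a group is assumed to vary like the other group.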

Additional observations from a re-analysis of the deposited data

How the results depend on the processing

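With 2 libraries per group, small changes rest on few values, and the least abundant genes (HK3, ENO2, PDK2, PFKFB2) on under 300 counts per library. The count of genes called higher was 11, between 9 and 13 in the alternatives with the same call rule (leaving out a library gave 9 to 13) and 16 with no fold threshold. LDHA lost its call with library size only, with no filter, with limma-trend and without the second library of either group, PKM with limma-trend and without the second sgNPM1A library, and PFKFB3 without the second sgRNA Ctrl library. The count called lower, 1 (PDK2), was 0 with DESeq2 and between 0 and 1 when a library was left out. The median log2 fold change was 0.19 with limma-trend on quantile-normalized values, compared with 0.25. The sign changed only for genes that were not called: when a library was left out, HK2 ranged from -0.21 to 0.013, PFKL from -0.12 to 0.025 (0.0011 without the first sgNPM1A library), PDK1 from -0.016 to 0.13 and RPE from -0.0084 to 0.26, and LDHB was at -0.078 with limma-trend. The causes were not tested.

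Libraries of the 2 groups share replicate numbers, but same-numbered libraries did not deviate together (correlation of deviations -0.13 across all tested genes and -0.52 across the 8856 above 10 CPM), so the numbers were not taken as pairs. The negative values may mean that the numbers are crossed. With the replicate number as a block 11 genes were called higher, all 11 the same ones, and 1 lower. With the numbers of 1 group exchanged, chosen after seeing the data, 12 were called higher, PFKFB2 being the added gene, and 1 lower.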
